A study of Arabidopsis thaliana with 6 samples.

Results

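The nuclear genes for plastid ribosomal proteins were followed in 6 single plants of Arabidopsis thaliana, accession Columbia-0: 3 wild type (plants 22, 23 and 24) and 3 from an isogenic msh1 memory line (plants 31, 32 and 33). The genes were chosen by locus identifier from a fixed list of 39, of 33602 loci counted: 25 encode large subunit proteins with an L number, 9 encode small subunit proteins with an S number, and 5 encode the plastid-specific ribosomal proteins PSRP2 to PSRP6. All 39 were found in the annotation and 38 had enough reads to be tested, among 16928 genes tested in all. MSH1 encodes a MutS-type protein of plastids and mitochondria. A memory line, as background, descends from plants in which MSH1 was once suppressed and keeps an altered phenotype. Each whole plant was taken at early bolting and gave 1 mRNA library, so all organs are mixed. Seeds of both groups were kept at 4 °C for 2 days, and the plants grew at 22 °C in light of 120 to 150 µmol per square metre and second. The labels name 1 memory line.

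Plastids translate their own messages on bacterial-type ribosomes. Part of the ribosomal proteins is encoded in the plastid genome, and the rest, including the genes described here, is encoded in the nucleus and imported. In the large subunit, L11 and L10 sit at the base of a flexible stalk that carries several copies of L12 and recruits the GTPases of translation. In bacteria L11 is also needed for the enzyme RelA to make the alarmone ppGpp on stalled ribosomes, and Arabidopsis mutants without PRPL11 are viable and pale green. The question is whether PRPL11, the plastid L11 gene, was lower alone in memory plants or together with the other subunits.

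PRPL11 was lower alone among the 38 tested genes. Its level dropped 10.2-fold, while the 95% interval of each of the other 37 genes lay within a 2-fold change. The nearest partners of L11 in the ribosome, L10 and L12, did not pass the test in either direction.

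PRPL11 (AT1G32990) lies on chromosome 1 at positions 11955656 to 11957402, plus strand, of assembly TAIR10.1, and no other annotated gene overlaps it. The 250 bases before its annotated start are shown because PRPL11 is the member that changed. The same window of PSRP6, 1 of the 3 members with the smallest p-values among the rest, is set beside it. Both are printed 5′ to 3′ from the RefSeq assembly TAIR10.1 in the direction of transcription, chr1:11955406-11955655 for PRPL11 and chr5:5907339-5907588 for PSRP6, each on the plus strand. Neither window holds the site II motif TGGGCC, a short element frequent before ribosomal protein genes, on either strand, so both stand in lower case throughout.
PRPL11: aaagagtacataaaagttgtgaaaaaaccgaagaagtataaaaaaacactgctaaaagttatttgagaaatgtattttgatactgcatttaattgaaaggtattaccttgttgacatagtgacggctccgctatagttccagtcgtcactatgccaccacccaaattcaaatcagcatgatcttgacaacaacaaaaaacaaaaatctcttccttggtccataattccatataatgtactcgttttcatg
PSRP6: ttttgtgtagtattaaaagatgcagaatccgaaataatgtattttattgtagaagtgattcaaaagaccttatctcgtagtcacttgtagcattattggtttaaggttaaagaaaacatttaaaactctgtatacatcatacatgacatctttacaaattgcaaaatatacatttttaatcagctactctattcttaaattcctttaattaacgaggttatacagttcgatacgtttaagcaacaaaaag

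In windows of 300 bases, 250 before and 50 after the start, TGGGCC or the related TGGGCT stood in 20 of the 39 members, 51.3%, against 21.7% of 27443 protein-coding genes. PRPL11 counts among the 20 through a single TGGGCT that begins at base 38 of its transcript, shown in capitals in the 30 bases at chr1:11955676-11955705 (plus strand, TAIR10.1).
PRPL11 start region: ctactacagacagtaaaTGGGCTtgatctg

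Both forms of site II differ in their last letter and were searched on both strands, as were 3 motifs of other letters. The telo-box core AAACCCT stood in 15.4% of members against 10.02% of all windows, the evening element core AATATCT in 12.8% against 11.5%, and the G-box CACGTG in 10.3% against 7.68%. None of these 3 was found in the 300 bases of PRPL11. These matches describe letters and were not tested.

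The libraries held 4060216 to 5806617 reads, and levels are given as CPM, reads relative to library size after scaling by the trimmed mean of M values (TMM). MSH1 itself was at 14.1 ± 2.94 CPM in the wild-type plants and 14.2 ± 2.34 CPM in memory plants (n = 3 each, ± SD). Wild-type plant 23 stood apart: its correlation with the other wild-type plants over genes was 0.942 and 0.952, against 0.976 between plants 22 and 24. Plant 23 was also the lowest of the 6 plants for 8 of 9 markers of dividing cells, all but MCM2 (28.0 CPM there and 25.9 to 38.5 CPM elsewhere), and the 9 summed to 58.6 CPM there and to 128 to 148 CPM in the other 5 plants. The root marker PYK10 had 1 read, or 0.193 CPM, in plant 23 and stood at 10.04 to 21.5 CPM in the others. The 8 leaf photosynthesis markers were abundant in every plant and none passed the test, while 3 of 6 root markers and 1 of 5 flower organ markers had enough reads to be tested, none of them called. The members with the smallest unadjusted p were PSBS among the leaf markers (log2 fold change 0.39, edgeR adjusted p = 0.371), the replication gene PRL among the dividing cell markers (0.33, adjusted p = 0.618), SCR among the root markers (0.12, adjusted p = 0.855) and AG among the flower markers (0.26, adjusted p = 0.921). Among the root markers, NRT2.1, CASP1 and COBL9 had at most 3 reads in a library. Among the untested flower markers, AP3, a petal and stamen identity gene, had 0 reads in all wild-type libraries, and memory plants 31, 32 and 33 had 4, 7 and 4, without overlap. SEP3, which acts in flower organ development, had 0, 0 and 10 reads in wild type and 10, 8 and 20 in memory plants, with overlapping groups. PI had 3 to 9 reads in wild type and 2 to 8 in memory plants, and SHP1 had at most 5 reads in a library. The part of these differences in the results below was not tested, and results are given without plant 23 where they change. In whole plants, fewer cells of a type and less RNA per cell cannot be told apart.

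PRPL11 had 853, 753 and 929 reads in wild-type plants 22, 23 and 24, and 83, 84 and 45 reads in memory plants 31, 32 and 33. Scaled, its level was 153, 146 and 162 CPM in the wild-type plants and 17.7, 16.9 and 10.4 CPM in memory plants. The groups lay far apart, and the memory plants kept 11.5%, 11% and 6.77% of the wild-type mean. The means were 154 ± 8.05 and 15.0 ± 4.01 CPM (SD, n = 3 each). The log2 fold change, memory minus wild type, was -3.35 (SE 0.192), with a 95% interval from -3.77 to -2.93 (edgeR quasi-likelihood test, adjusted p = 1.24e-05 by Benjamini-Hochberg over all 16928 genes). This was the smallest p of all tested genes, and 9 genes had a larger decrease. Over all genes, 1.37% were called lower and 0.449% higher at an adjusted p of 0.05, or 232 and 76 genes, which together make 1.82%. With scaling by library totals the split was 173 lower and 98 higher. Among the 38 tested members the count was 1 lower and 0 higher.

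PRPL11 reads can be told from those of other nuclear protein-coding genes. None of the 150-base or 50-base stretches of the PRPL11 mRNA occurs in an annotated transcript of any of them. Non-coding, pseudogene and organelle transcripts were not searched. Per kb of transcript, PRPL11 stood at 139.2 CPM in wild type, 32nd of the 39 members from the highest, and at 13.6 CPM in memory plants, below every other member that had reads.

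**Figure D1:**
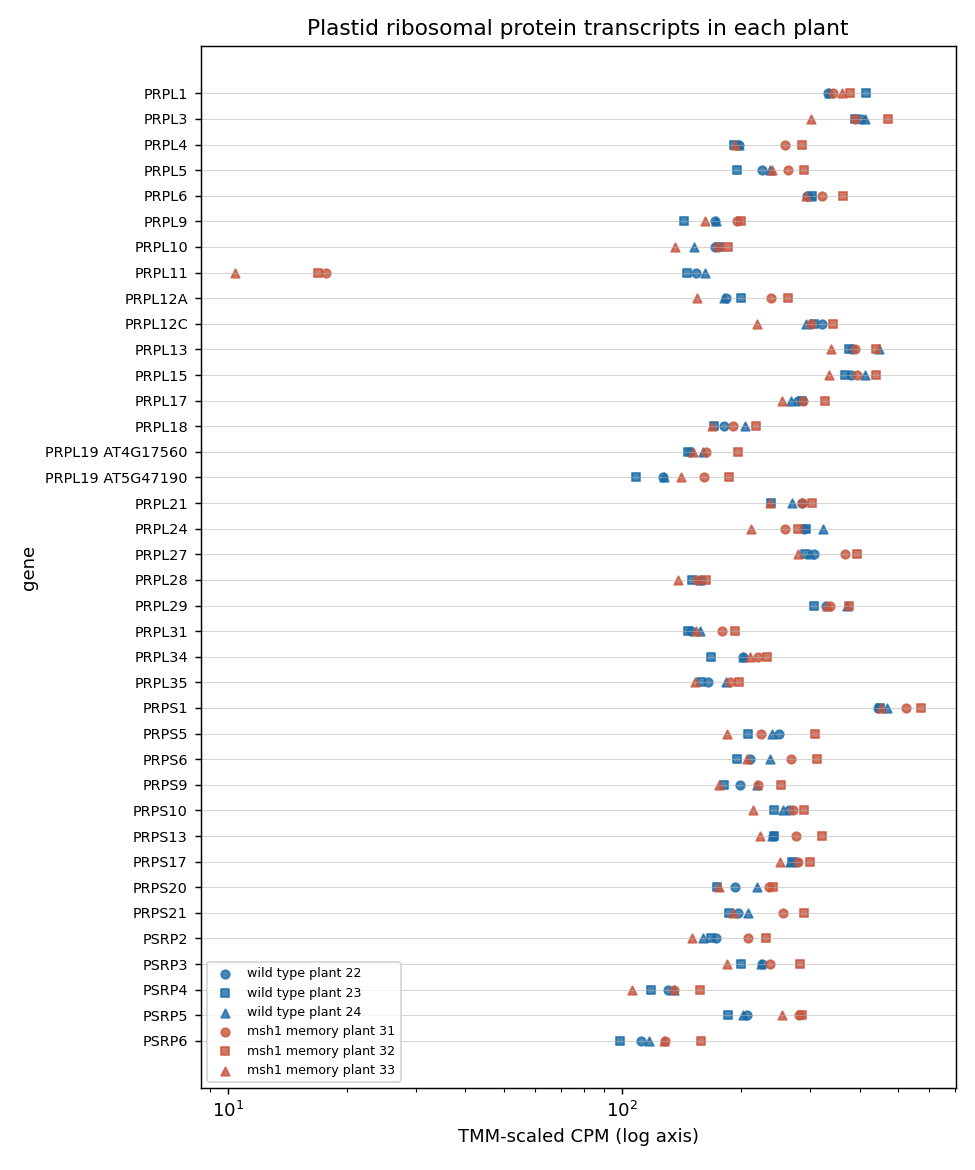
TMM-scaled CPM (log axis) of the 38 plastid ribosomal protein genes with reads in each of the 6 plants, wild type in blue and msh1 memory in red, 1 marker shape per plant. The memory plants of PRPL11 lie at 10.4 to 17.7 CPM, and every other point lies between 98.8 and 573 CPM.

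The proteins that adjoin L11 were described next. PRPL10 (AT5G13510), which anchors the stalk, was at 172, 176 and 152 CPM in the wild-type plants and 174, 185 and 136 CPM in memory plants. The groups overlap throughout, with a log2 fold change of -0.01 (SE 0.153, 95% interval -0.34 to 0.32, edgeR adjusted p = 0.986). AT5G02095 and AT5G13520, on the opposite strand, overlap the PRPL10 gene. It shares 12.6% of its 50-base stretches with AT5G13520, at 7.54 to 17.1 CPM, and the kit does not mark strand. Within each plant the ratio of PRPL11 to PRPL10 reads was 0.892, 0.827 and 1.06 in wild type and 0.102, 0.0913 and 0.0763 in memory plants. This ratio does not depend on how libraries were scaled. The mean log2 ratio differed by -3.37, and the exact two-sided permutation test gave p = 0.1, the smallest that 3 plants against 3 allow. The fall of PRPL11 was known before this ratio was chosen, so the p-value adds no independent evidence. Against PRPL12A, PRPL12C and PRPL1 the log2 ratio differed by -3.58, -3.28 and -3.40.

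L12 proteins form the stalk itself and are encoded by 3 loci close together on chromosome 3. PRPL12A (AT3G27830) was at 183, 200.3 and 181 CPM in the wild-type plants and 238, 264 and 155 CPM in memory plants. PRPL12C (AT3G27850) was at 322, 306 and 293 CPM against 301, 342 and 219.8 CPM. Both overlap between groups, with log2 fold changes of 0.22 (95% interval -0.19 to 0.63) and -0.09 (95% interval -0.47 to 0.28). They share 12.6% and 13.3% of their 150-base stretches with each other, so the division of reads between them is uncertain. Summed into 1 row with PRPL12B they gave a log2 fold change of 0.03 (edgeR adjusted p = 0.966). PRPL12B (AT3G27840) had 0 reads in all 6 libraries, which allows up to 0.521 to 0.691 scaled CPM in a library (3 reads, counting error only). PRPL1 (AT3G63490), the protein of the other stalk at the tRNA exit side, was at 333, 415 and 335 CPM and at 342, 378 and 359.7 CPM, with a log2 fold change of -0.0037 (edgeR adjusted p = 0.996).

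Of the 37 tested members other than PRPL11, edgeR called 0 lower and 0 higher, and so did limma voom. Unadjusted p-values under 0.05 were found for 3 of them, all higher in memory plants, beside 5.67% of all genes higher and 7.17% lower at that level. DESeq2 called 1 member higher, PSRP5, beside 118 genes higher and 405 lower among 22461. The log2 fold changes ran from -0.27 to 0.46, with 30 positive and 7 negative (48.8% of all tested genes were negative) and a median of 0.12, beside a median of 0.01 over all tested genes. The 95% intervals reached from -0.60 to 0.76 at their extremes, and 28 of the 37 lay within a 1.5-fold change. Groups that did not overlap were found for 5 members with memory plants higher (PRPL5, PRPL19 AT5G47190, PRPL34, PSRP5 and PSRP6) and for 1 with memory plants lower (PRPL24), beside 9.52% and 10.2% of all tested genes and 19.7% in either direction.

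**Figure D2:**
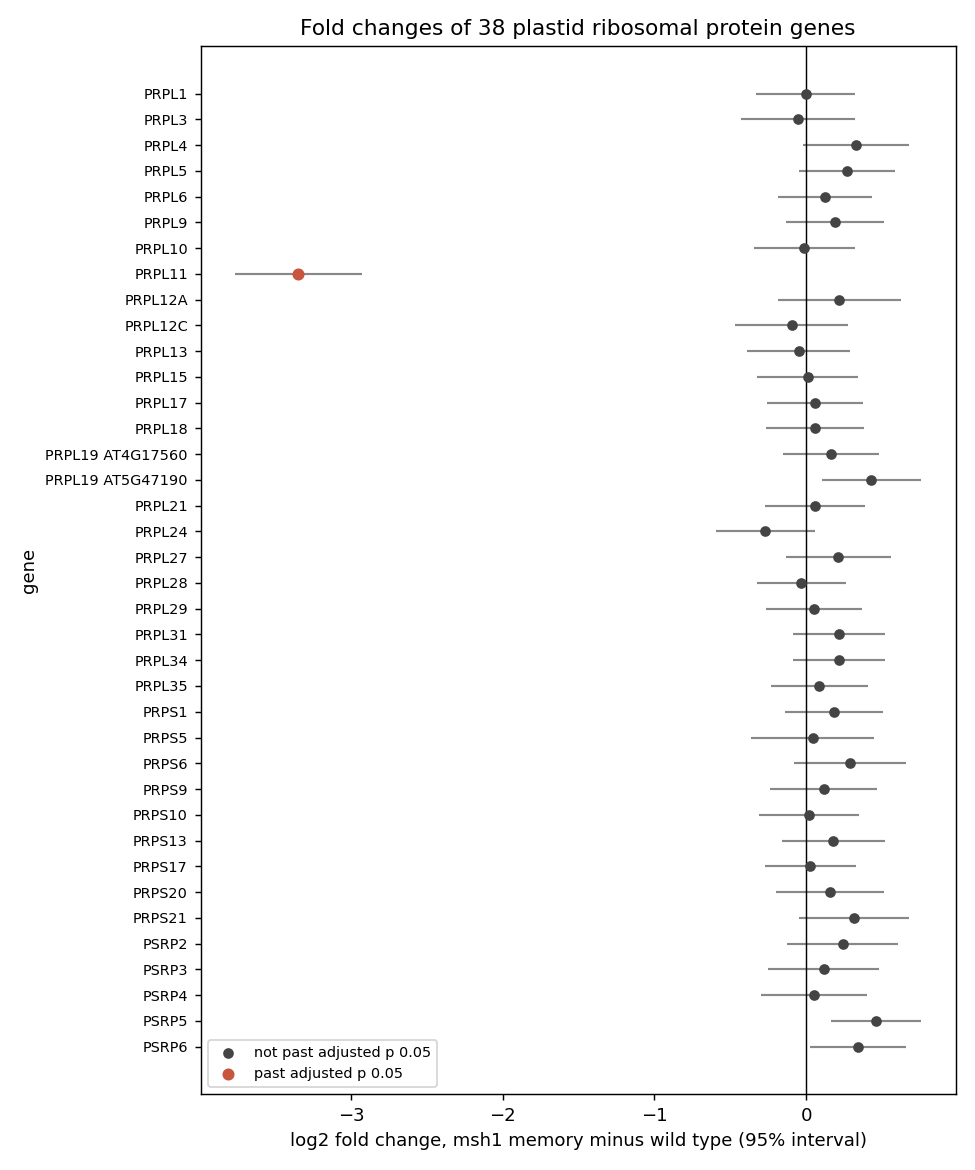
Log2 fold change, msh1 memory minus wild type, with its 95% interval for the 38 tested genes, red where the adjusted p was under 0.05. PRPL11 lies at -3.35, and the other 37 lie between -0.27 and 0.46.

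Of the 23 other large subunit genes tested, 16 had a positive and 7 a negative log2 fold change, with a median of 0.06, and without plant 32 these were 11 positive and 12 negative. PRPL19 is encoded by 2 loci, and its protein lies at the interface of the subunits. At AT5G47190 the level was 127, 108 and 128 CPM in the wild-type plants and 162, 186 and 141 CPM in memory plants, so every memory plant lay above every wild-type plant. The log2 fold change of 0.43 (SE 0.150) did not pass the adjusted threshold (edgeR unadjusted p = 0.0141, adjusted p = 0.224). The other locus, AT4G17560, had a log2 fold change of 0.17 (95% interval -0.15 to 0.48). The pair share no 150-base stretch, and their summed reads gave 0.29 (adjusted p = 0.466).

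PRPL4 (AT1G07320), whose bacterial counterpart lines the tunnel through which the new protein leaves, had the next largest positive value of the large subunit. Its level was 198, 192 and 198 CPM in the wild-type plants and 258, 286 and 193 CPM in memory plants. Plant 33 lay among the wild-type plants, and the log2 fold change was 0.33 (95% interval -0.02 to 0.68).

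PRPL24 (AT5G54600), whose bacterial counterpart starts the assembly of the large subunit, had the most negative value after PRPL11. It was at 289, 293 and 322 CPM in the wild-type plants and 259, 279 and 212 CPM in memory plants, with no overlap. The log2 fold change of -0.27 (SE 0.150) did not pass the test (edgeR unadjusted p = 0.0972, adjusted p = 0.504). PRPL3 (AT2G43030), also an early assembly protein in bacteria, was at 403, 388 and 413 CPM against 389, 472 and 301 CPM. PRPL13 (AT1G78630) was at 383, 376 and 448 CPM against 390.0, 439.9 and 338 CPM. Both overlap between groups, each with a log2 fold change of -0.05.

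Per kb of transcript, levels of the 23 ran from 119.9 CPM for PRPL19 (AT5G47190) to 402.3 CPM for PRPL29 in wild type. PRPL29 (AT5G65220), a protein at the mouth of the exit tunnel, was at 328, 306 and 372 CPM in the wild-type plants and 337, 377 and 331 CPM in memory plants, with overlapping groups. The remaining large subunit genes were PRPL5, 6, 9, 15, 17, 18, 21, 27, 28, 31, 34 and 35, with log2 fold changes from -0.03 for PRPL28 to 0.27 for PRPL5. For PRPL28, 60% of its 150-base stretches also lie in RIC1, a gene on the opposite strand with at most 1 read in a library.

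All 9 small subunit genes had positive log2 fold changes, from 0.02 to 0.32 with a median of 0.16, and 0 of them had an unadjusted p under 0.05. Without plant 32, 5 of the 9 were positive and the median was 0.05; without plant 23, 7 were positive, and without plant 31, 8. PRPS21 (AT3G27160) was at 197, 186 and 208 CPM in the wild-type plants and 255, 289 and 191 CPM in memory plants. PRPS6 (AT1G64510), a protein of the small subunit platform, was at 210.4, 196 and 238 CPM against 267, 312 and 207 CPM. In both genes plants 31 and 32 lay above wild type and plant 33 lay within it, with log2 fold changes of 0.32 (95% interval -0.05 to 0.68) and 0.29 (95% interval -0.08 to 0.66).

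Per kb, PRPS17 was the highest of the small subunit genes in wild type and PRPS10 the lowest, at 381 and 168 CPM. PRPS17 (AT1G79850), which binds the small ribosomal RNA directly, was at 275, 270.1 and 266 CPM against 278, 299 and 251 CPM. PRPS10 (AT3G13120), a protein of the head of the subunit, was at 265, 242 and 255 CPM against 271, 288 and 214 CPM. The groups of both overlap. The other 5, PRPS1, 5, 9, 13 and 20, had log2 fold changes from 0.04 for PRPS5 to 0.18 for PRPS1. PRPS13 shares 22.4% of its 150-base stretches with an overlapping gene, CXE16, at 20.8 to 34.4 CPM, and the kit does not mark strand.

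The 5 plastid-specific proteins are named without an L or S number. PSRP2, PSRP3 and PSRP4 belong to the small subunit, PSRP5 and PSRP6 to the large. All 5 log2 fold changes were positive, with a median of 0.24, but without plant 32 only 3 were, with a median of 0.11. PSRP5 (AT3G56910) was at 207, 185 and 203 CPM in the wild-type plants and 281, 285 and 254 CPM in memory plants. The groups did not overlap, and this was the smallest p after PRPL11. Its log2 fold change was 0.46 (SE 0.136, edgeR unadjusted p = 0.00535, adjusted p = 0.134). It was called by DESeq2 (log2 fold change 0.46, adjusted p = 0.0369) and by edgeR without plant 23 (0.42, adjusted p = 0.0384), and by no other of the 17 alternatives. Without plant 23, 457 of 17174 tested genes were called higher. AT3G08785 and AT3G56900, on the opposite strand, overlap the PSRP5 gene. It shares 3.73% of its 50-base stretches with AT3G56900, at 5.41 to 10.7 CPM. PSRP6 (AT5G17870) was at 111, 98.8 and 117 CPM against 128, 158 and 128 CPM, again without overlap. Its log2 fold change was 0.34 (SE 0.145, edgeR unadjusted p = 0.0357, adjusted p = 0.342). PSRP2, PSRP3 and PSRP4 had log2 fold changes of 0.24, 0.12 and 0.05, with overlapping groups.

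The 37 genes tended to be high or low in the same plants. Relative to each gene's wild-type mean, their median was 0.01, -0.08 and 0.05 on the log2 scale in wild-type plants 22, 23 and 24, and 0.13, 0.30 and -0.12 in memory plants 31, 32 and 33. Plant 32 was the highest of the memory plants for all 37 and the highest of the 6 plants for 34. Plant 33 was the lowest of the memory plants for 36 and the lowest of the 6 for 22. Of all 16928 tested genes, plant 32 was the highest memory plant for 37.7% and plant 33 the lowest for 36.9%, and of the 1307 genes in the same range of wild-type CPM, for 51.3% and 49.4%. Both held at once for 36 of the 37, beside 22.8% of all tested genes and 38.7% of those in that range. The same order held for 7 of the 8 leaf photosynthesis markers, all but RCA. Their summed level was 58914 CPM for plant 31, 61495 CPM for plant 32 and 50090.1 CPM for plant 33. It also held for the 4 tested relatives of L11 outside the plastid. In other lists it held for 6 of 16 plastid translation factors, 3 of 14 ribosome assembly factors and 0 of 4 genes of ppGpp metabolism. Among the other markers it held for 1 of 9 for dividing cells, 1 of 3 for roots and 0 of 1 for flowers. The part of this plant-to-plant order in the members' fold changes was not tested beyond leaving out each plant. The median coefficient of variation was 6.28% among wild-type and 13.8% among memory plants. PRPL11 was also lowest in plant 33, with coefficients of 5.24% and 26.7%.

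Summed, the members other than PRPL11 came to 8809, 8441 and 9062 CPM in the wild-type plants and 9600.2, 10729 and 8060 CPM in memory plants. The sums of the memory plants lie on both sides of wild type. Accordingly the members' median log2 fold change, 0.12 with all plants, was 0.01 without plant 32 and 0.22 without plant 33. Of the 37, 19 were positive without plant 32, 27 without plant 23 and 35 without plant 33, and 35 were positive with scaling by library totals. PRPL11 was called lower whichever plant was left out.

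**Figure D3:**
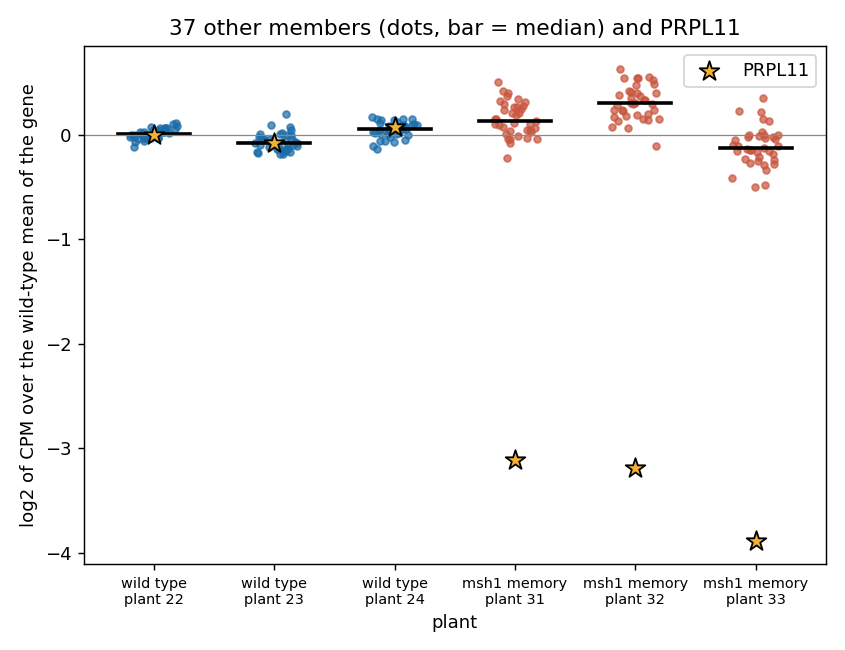
Log2 of CPM over the gene's wild-type mean in each plant for the 37 other tested genes (dots, bar at the median) and PRPL11 (star). The dots of plants 32 and 33 are shifted to medians of 0.30 and -0.12, and the stars of the memory plants lie at -3.11, -3.18 and -3.88.

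Genes that work with these ribosomes were read from lists chosen by function. Of 16 plastid translation factors all were tested and 0 were called, with 1 unadjusted p under 0.05 and a median log2 fold change of 0.14. The smallest p was that of SVR9L1, an initiation factor of the IF3 type, at 60.6, 71.9 and 77.4 CPM in the wild-type plants and 53.0, 59.1 and 54.6 CPM in memory plants. Its groups did not overlap, and its log2 fold change was -0.33 (edgeR unadjusted p = 0.0367, adjusted p = 0.347). Of 14 factors for plastid ribosome assembly 0 were called, with 2 unadjusted p-values under 0.05 and a median of 0.13. There the smallest p was that of RAP, needed for maturation of the plastid small subunit RNA, at 36.2, 25.3 and 22.3 CPM against 39.1, 43.2 and 36.8 CPM. Its groups did not overlap either (log2 fold change 0.51, edgeR unadjusted p = 0.0182, adjusted p = 0.255).

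Relatives of L11 in other compartments were not called. MRPL11 (AT4G35490), the mitochondrial L11, was at 37.6, 32.7 and 34.5 CPM in the wild-type plants and 32.3, 36.2 and 23.3 CPM in memory plants, with overlapping groups. Its log2 fold change was -0.19 (95% interval -0.57 to 0.19). The 3 cytosolic counterparts had log2 fold changes of 0.12 to 0.15, and the other listed locus, AT5G51610, had 0 reads in all libraries. The plastid-encoded partners were not analysed here, since the 20 listed loci hold 0 in every library, as do all organelle loci.

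Enzymes of ppGpp metabolism in plastids are encoded by RelA/SpoT homologues, the RSH genes, of which 4 were tested. RSH2 (AT3G14050) was at 73.1, 76.0 and 93.3 CPM in the wild-type plants and 50.2, 46.7 and 55.9 CPM in memory plants. The groups did not overlap and RSH2 was called lower, with a log2 fold change of -0.67 (SE 0.148, edgeR adjusted p = 0.0440). The call lies close to the threshold: it was lost in 11 of 17 alternatives, among them leaving out plant 22, 24, 31, 32 or 33, with adjusted p of 0.0714, 0.128, 0.259, 0.235 and 0.133. RSH3, its nearest relative, had a log2 fold change of -0.41 (edgeR unadjusted p = 0.0163, adjusted p = 0.241) and RSH1 one of -0.09 (adjusted p = 0.884). CRSH went the other way, with a log2 fold change of 0.46 (edgeR unadjusted p = 0.0373, adjusted p = 0.350).

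The genes around PRPL11 on chromosome 1 were examined to see whether the drop extends beyond the gene. Of the 10 tested genes nearest to it, 5 on each side, 0 were called lower and 1 was called higher with all plants, beside 0.449% of all genes. SBT3.3, the nearest tested gene before it, and NACA5, the nearest after it, start at -10.4 and 10.8 kb from the start of PRPL11. Genes that were not tested, such as AT1G32970 overlapping SBT3.3, were left out. SBT3.3 and NACA5 had log2 fold changes of 0.04 (95% interval -0.76 to 0.84) and 0.36 (95% interval -0.01 to 0.73). SBT3.5, AT1G32930, AT1G33050, NAC014, AT1G33080 and AT1G33110 lay between -0.04 and 0.55. None of these 8 passed the test. With all plants, AT1G33110 was at 33.3, 52.6 and 29.1 CPM in the wild-type plants and 47.0, 51.1 and 58.5 CPM in memory plants.

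GBSS1 (AT1G32900), the granule-bound starch synthase that makes amylose, was at 77.9, 91.4 and 66.0 CPM in the wild-type plants and 161, 170.4 and 143 CPM in memory plants. The groups lay well apart, with a log2 fold change of 1.01 (SE 0.155, edgeR adjusted p = 0.00702). Without plant 31, 32 or 33 the adjusted p was 0.0694, 0.0572 and 0.0507. AT1G32920 was at 26.3, 7.54 and 56.9 CPM against 6.20, 7.85 and 3.24 CPM. Its wild-type plants were widely spread and plant 23 lay among the memory plants, with a log2 fold change of -2.38 (SE 0.837, adjusted p = 0.340). Without plant 23 the neighbours called were 3 in number: GBSS1 and AT1G33110, higher in memory plants, and AT1G32920, lower. In that setting 457 genes were called higher and 562 lower among 17174 tested.

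**Figure D4:**
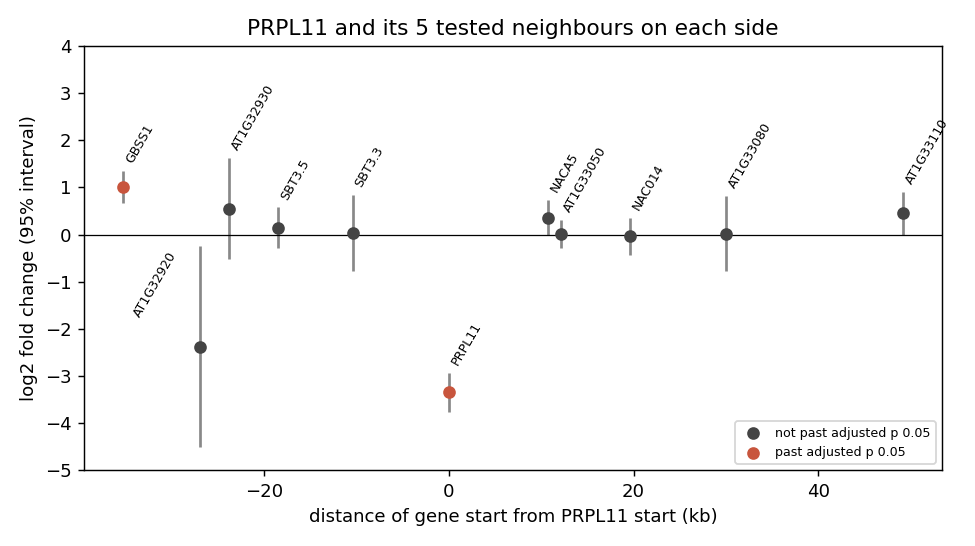
Log2 fold change with its 95% interval for PRPL11 and the 5 tested genes on each side, against the distance of each gene's start from the start of PRPL11 (kb), red where the adjusted p was under 0.05. PRPL11 lies at -3.35 and GBSS1 at 1.01, and the intervals of 8 of the other 9 genes include 0.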

How the data were processed

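Whole-plant mRNA libraries (TruSeq RNA v2, which does not mark strand, 150-bp reads, per the labels' protocols) were compared between 3 wild-type and 3 msh1 memory plants. The authors deposited 1 table of raw counts per plant, in whole numbers for each locus. TAIR10 and DESeq2 are named in the submitters' processing notes. The aligner, the counter and how reads with several matches were treated were not given in the sources used here.

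Counts were analysed with edgeR 4.0.16 in R 4.3.3: filterByExpr (minimum count 10, minimum total 15), TMM scaling, robust glmQLFit and glmQLFTest, two-sided, with Benjamini-Hochberg adjustment over 16928 genes and a threshold of 0.05. Each SE is the log2 fold change over the root of F. On simulated counts with 200 changed genes, the fit called 92.6% of 4-fold and 58.2% of 2-fold changes, and 16 unchanged genes. Gene positions, transcript lengths and sequences come from RefSeq TAIR10.1, which matched 32835 of 33602 loci; the files hold no coordinates. Libraries of 1 group differed by a chi-square per degree of freedom of at least 3.23, so none was deposited in duplicate. A count of 0 allows 3 reads.

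The members and lists were chosen with earlier results of these data known. Genes named with a value in every plant are PRPL11, PRPL10, the PRPL12 loci, PRPL1, members called or with an unadjusted p under 0.05, the 3 largest values of the rest in each direction, and the highest and lowest per kb of each subunit. Lists give members called, otherwise the 1 with the smallest p, and the values of the other RSH genes and of single root, flower and dividing cell markers beyond this were added after they were seen. The alternatives were 3 other scalings, 2 other filters, DESeq2 1.42.0, limma 3.58.1 voom, non-robust estimation, testing for more than a 1.5-fold change, a stricter threshold (0.01), reads of the PRPL12 loci and of the PRPL19 pair each summed to 1 row, and leaving out each plant.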

Additional observations from a re-analysis of the deposited data

How the results depend on the processing

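PRPL11 was the only member called lower in all 17 alternatives, with a log2 fold change from -3.48 to -3.15 and an adjusted p of at most 0.00121. The members' median log2 fold change lay between 0.01 and 0.22 and its shift stayed within the spread between plants. The count of members called higher was 0 with all plants and 0 to 1 when a plant was left out (1 without plant 23), and 1 with DESeq2, in both cases PSRP5. Over all genes, the 308 calls became 523 with DESeq2, 44 with the test against a 1.5-fold change and 98 at a threshold of 0.01, and leaving out 1 plant gave 34 to 1019 calls (34, 65 and 38 without plants 31, 32 and 33, and 1019 without plant 23). The cause was not tested. Neighbours of PRPL11 called were 1, then 0 with the 1.5-fold test and 0 to 3 with a plant left out. The log2 ratio of PRPL11 to PRPL10 lay between -3.47 (without plant 31) and -3.26 with 1 plant of either group left out. With 2 plants against 3 the smallest possible p of its permutation test is 0.2. No paired analysis was possible because no plant number occurs in both groups.

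With 3 plants in each group and 4060216 to 5806617 reads in a library, the 95% intervals of 28 of the 37 members other than PRPL11 lie within a 1.5-fold change and those of the rest within a 2-fold change. Protein levels and plastid-encoded transcripts were not analysed here.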
